A study of Sus scrofa with 8 samples.

Results

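The acute phase proteins of the pig are described here by the hepatic transcripts of 10 gene symbols, taken from the expression table by symbol alone: HP (haptoglobin), HPX (hemopexin), CP (ceruloplasmin), ITIH4, ORM1, the serum amyloid A genes SAA2, SAA3 and SAA4, CRP (C-reactive protein) and LBP (lipopolysaccharide-binding protein). These symbols matched 11 genes of the 18103 rows listed, because CRP is the symbol of 2 genes. Hepatic RNA of male Landrace x Large White pigs was sequenced in 8 libraries, and each library was a pool of RNA from 2 pigs. The 4 libraries of the initial state, called Control in the labels, came from pigs 4 months old, biopsied by laparotomy before any steatotic diet. The 4 libraries of steatosis came from the same animals at 6 months of age, after 2 months on a diet rich in saturated fat, fructose, cholesterol and cholate, deficient in methionine and restricted in choline, with liver taken at euthanasia. All pigs had fasted overnight, and no library came from pigs that grew older on the control diet, so diet, age and way of sampling cannot be told apart. Which pigs went into which pool is not given in the sources used here. In the text, fell and rose are used for genes at an adjusted p under 0.05 in a test across all 13175 genes that were high enough to test, and a log2 fold change is steatosis over initial state.

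The acute phase is the shift in plasma proteins made by the liver when tissue is infected or injured. Hepatocytes respond to interleukin 6 through STAT3 and to interleukin 1 and tumour necrosis factor through NF-kappa B, and they raise the output of positive acute phase proteins while that of negative ones, such as albumin and transferrin, declines. In swine practice, haptoglobin, ITIH4 (known as pig major acute phase protein), C-reactive protein and serum amyloid A are the ones measured in plasma as signs of infection or stress.

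In the limma test, 0 genes of the group rose in steatosis and 2 fell, HP and HPX. At an unadjusted p under 0.05, 1 gene was higher, a CRP gene, and the same 2 were lower. With pool number as a block, 1 rose (SAA3, adjusted p = 0.0174) and 3 fell (SAA4 in addition, adjusted p = 0.00357), and the values of both genes are given below by pool. Without the block the remaining 9 genes did not pass the test, and their log2 fold changes lay between -0.97 (SAA2) and 0.96 (SAA3). None of the 11 reached the limits used by the study, an adjusted p under 0.01 with a log2 fold change beyond 1. Over all genes tested, 26.7% were higher and 2.28% lower at an adjusted p under 0.05, and 6.01% were higher and 0.334% lower at the study's limits. The median log2 fold change of the 11 genes was -0.25, and that of all genes tested was 0.25. That of 6 hepatocyte markers was -0.24. In bulk tissue, fewer cells of a type and less RNA per cell cannot be told apart.

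Values are FPKM, fragments scaled to transcript length and to the mapped fragments of the library, so that levels can be compared between genes. The sum of FPKM ranged from 511863 to 545731 per library and the relative depth of the libraries, read from the smallest steps of low values, from 91.9% to 100%. The median of all genes was higher in steatosis, and scaling by the median ratio of genes brought it from 0.25 to -0.01. Under this scaling 1521 genes were higher and 1284 lower, against 3519 and 300 with the values as deposited, so directions of small size were checked under both. Initial pool 1 stood apart by transcripts of other tissues. The skeletal muscle gene ACTA1 was at 1439 FPKM in it and at 10.5 or less in every other library, the stomach gene TFF1 at 727 and at most 11.7, and the adipocyte gene ADIPOQ at 27.9 and at most 0.60. All 6 hepatocyte markers, such as CPS1 and HPD, were present in every library and 0 passed in limma (2 were lower at an unadjusted p under 0.05, and 3, TAT, CPS1 and ASGR2, passed as lower after median ratio scaling). Their summed level was 1193 to 2208 FPKM in the initial state and 1029 to 1077 in steatosis. Their median log2 fold change was -0.24, beside -0.25 for the acute phase genes, of which 6 had lower and 5 higher estimates. The negative acute phase proteins, listed below, had a median of 0.01. The part of hepatocyte content in the values of the acute phase genes was not tested.

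The levels of the group covered a wide range, and the most abundant 3 genes were the same in both states. In the initial state ORM1 was at 12068 ± 3455 FPKM (SD, n = 4 pools, as for all means below), HP at 7228 ± 1029 and HPX at 2679 ± 305, and the ranges of these 3 genes did not overlap. By mean level over the 8 libraries, ORM1 ranked 3, HP 5 and HPX 34 among all genes listed. CP (538 ± 137 FPKM) and ITIH4 (438 ± 62.0) followed, with overlapping ranges. Below them SAA2 (177 ± 166), LBP (134 ± 33.1), SAA4 (87.3 ± 33.2), CRP gene 396842 (74.3 ± 23.6), SAA3 (39.8 ± 34.4) and CRP gene 100620468 (29.2 ± 5.26) formed a run in which each gene overlapped the next. In steatosis ITIH4 (505 ± 110.3) stood above CP (447 ± 70.2) with overlap. SAA2 (66.2 ± 31.8) moved from place 6 to 9 and SAA4 (48.8 ± 19.9) from 8 to 10, while SAA3 (68.8 ± 33.9) moved from 10 to 8 and CRP gene 396842 (95.8 ± 48.5) from 9 to 7, and neighbours in this run again overlapped. All 11 genes were at 20.3 FPKM or more in every library, and all passed the filter on low values.

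**Figure D1:**
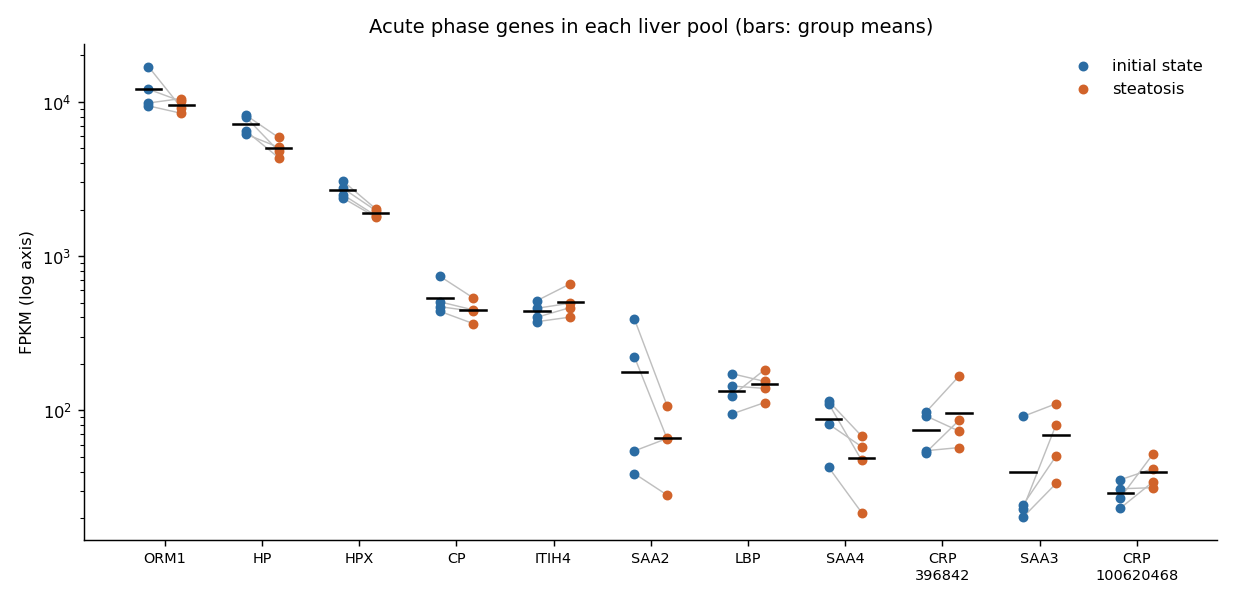
FPKM of the 11 acute phase genes (log axis) in the 4 initial state pools (blue) and the 4 steatosis pools (orange), with grey lines joining pools of the same number and black bars at the group means. HP and HPX are the only genes shown whose groups do not overlap, while SAA2 spreads from 28.2 to 392 FPKM.

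The summed level of the 11 genes held 4.44% ± 0.595 of all FPKM in the initial state and 3.41% ± 0.278 in steatosis, a ratio of 0.767. Initial state pools lay between 3.81% and 5.17% and steatosis pools between 3.19% and 3.81%, and the ranges touched only through steatosis pool 4 and initial pool 2. ORM1 and HP together made up 79.8% to 84.0% of the sum in every library. Set against albumin in the same library, the sum was 0.489 ± 0.133 times ALB in the initial state and 0.484 ± 0.0863 times in steatosis, a ratio of 0.991. ALB itself was at 71003 FPKM in initial pool 4 and between 33168 and 45743 in the other 7 libraries.

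HP, HPX and CP encode the plasma scavengers of haemoglobin, free haem and copper. Haptoglobin binds haemoglobin set free from red cells and delivers it to the macrophage receptor CD163, hemopexin binds haem and is taken up through LRP1, and ceruloplasmin carries copper and oxidizes iron. HP (chromosome 6, 14980382 to 14985245, Sscrofa11.1, as for all coordinates here) stood at 7996, 6186, 6511 and 8222 FPKM in initial pools 1 to 4, and at 4792, 5075, 4345 and 5873 FPKM in steatosis pools 1 to 4. Every steatosis pool was below every initial pool. HP fell by 0.52 on the log2 scale (SE 0.15, limma, adjusted p = 0.0245), which is a fold of 0.696 with a 95% interval of 0.555 to 0.872.

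HPX (chromosome 9, 3288288 to 3297051) stood at 2504, 2383, 3072 and 2756 FPKM in initial pools 1 to 4 and at 1828, 1788, 2023 and 1973 FPKM in steatosis pools 1 to 4. The groups did not overlap, and the steatosis pools differed little among themselves. HPX fell by 0.49 on the log2 scale (SE 0.11, limma, adjusted p = 0.0105), a fold of 0.713 with a 95% interval of 0.600 to 0.848. Of all genes tested, 2.53% had every steatosis pool below every initial pool and 29.6% had every steatosis pool above. The exact permutation test, two-sided on mean FPKM, gave p = 0.114 to 0.629 for the other 9 genes. For HP and HPX this exact test gave p = 0.0286, the smallest that 4 pools against 4 can give, which groups without overlap always reach, so it adds nothing to that observation.

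The call of HPX was kept under all 15 alternatives, with adjusted p values of 0.00578 to 0.0377. That of HP was less firm. Its adjusted p rose to 0.0545 without initial pool 1, 0.0587 without initial pool 4, 0.0558 without steatosis pool 1 and 0.0705 without steatosis pool 3, with log2 fold changes of -0.47, -0.46, -0.50 and -0.46, and it was 0.0996 without the filter on low genes. Relative to ALB in the same library, a ratio of single genes added after the values were seen and given without a test, both genes overlapped between groups. The ratio of HP to ALB was 0.116 to 0.175 in the initial state and 0.0999 to 0.168 in steatosis, and that of HPX to ALB was 0.0388 to 0.0704 and 0.0465 to 0.0566.

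CP (chromosome 13, 89396713 to 89463540) stood at 438, 740, 505 and 470 FPKM in initial pools 1 to 4 and at 365, 537, 448 and 439 FPKM in steatosis. Each steatosis pool was below the initial pool of its number, but the groups overlapped, and pool 2 was the highest in both states. The log2 fold change of CP was -0.25 (SE 0.18) and did not pass (limma, adjusted p = 0.307), although after median ratio scaling it was -0.52 with an adjusted p of 0.0496. Without initial pool 2 it was -0.09 and without steatosis pool 1 -0.16. Of the red cell genes, HBB, the beta chain of haemoglobin, was at 260.0 to 1281 FPKM in the initial state and 135 to 423 in steatosis, with a log2 fold change of -1.37 (limma, adjusted p = 0.0599, and 0.0441 with pool number as a block). The part of blood in the samples in the values of HP and HPX was not tested.

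ITIH4 (chromosome 13, 34928455 to 34948250) encodes a heavy chain of the inter-alpha-trypsin inhibitor family. Its level was 376, 402, 459 and 515 FPKM in initial pools 1 to 4 and 402, 464, 495 and 660.3 FPKM in steatosis pools 1 to 4. In each pool number the steatosis value was slightly higher, by ratios of 1.07 to 1.28, and the spread between pool numbers was larger than this step. The log2 fold change was 0.19 (SE 0.16) with a 95% interval of -0.16 to 0.55, and it did not pass (limma, adjusted p = 0.385). Its sign turned to -0.08 after median ratio scaling (adjusted p = 0.794), and it was 0.06 without steatosis pool 4, 0.12 without initial pool 1 and 0.30 without steatosis pool 1. Against ALB, as a description without a test, the groups separated, at 0.00725 to 0.0105 in the initial state and 0.0114 to 0.0189 in steatosis. ALB itself had a log2 fold change of -0.40 and the median gene one of 0.25. The share of all genes that separate against ALB was not counted.

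ORM1 (chromosome 1, 254939154 to 254943065) encodes alpha-1-acid glycoprotein, a plasma carrier of basic drugs and lipids. It was the most abundant transcript of the group, at 12077, 9419, 16945 and 9830 FPKM in initial pools 1 to 4 and at 10076, 8425, 9150 and 10505 FPKM in steatosis. Initial pool 3 stood above all others, and the steatosis pools spanned a narrower range that overlapped the initial one. The log2 fold change was -0.30 (SE 0.19) with a 95% interval of -0.74 to 0.13 and did not pass (limma, adjusted p = 0.259). It was -0.13 without initial pool 3 and -0.58 after median ratio scaling.

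**Figure D2:**
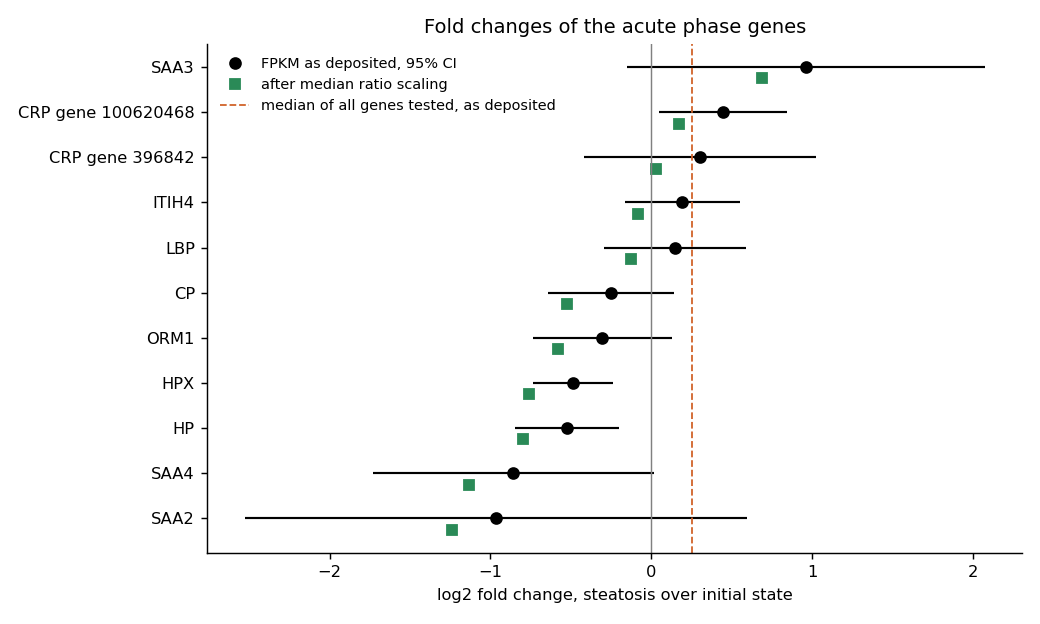
Log2 fold changes of the 11 genes with 95% confidence intervals from the values as deposited (black), and estimates after median ratio scaling (green squares). The dashed line marks the median of all genes tested at 0.25. Only the intervals of HP and HPX, and that of CRP gene 100620468 on the higher side, leave out 0.

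The 3 serum amyloid A genes encode small apolipoproteins of high-density lipoprotein. SAA2 belongs to the acute type in other mammals, SAA4 is known there as the constitutive one, and SAA3 is also made outside the liver, in adipose tissue and macrophages. They lie side by side on chromosome 2, SAA2 at 40972797 to 40976222, SAA4 at 40986869 to 41003059 and SAA3 at 41021349 to 41025950. Their reads can be shared between copies of like sequence, and how the counting divided them was not tested. These were the most variable members among pools. The spread of SAA2 in the initial state (SD 1.60 on the log2 scale) was larger than that of 99.2% of all genes tested, that of SAA3 (1.01) larger than 97.5% and that of SAA4 (0.66) larger than 93.4%, where the median gene had 0.25.

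SAA2 stood at 223, 54.5, 38.9 and 392 FPKM in initial pools 1 to 4 and at 64.8, 65.8, 28.2 and 106 FPKM in steatosis. Initial pools 1 and 4 were far above the rest, pool 4 was highest and pool 3 lowest in both states, and the groups overlapped. The difference of -0.97 on the log2 scale had an SE of 0.70 and a 95% interval of -2.53 to 0.60 (limma, adjusted p = 0.322). It was -0.38 without initial pool 4, -0.65 without initial pool 1, -0.60 without steatosis pool 3 and -1.49 without initial pool 3.

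SAA3 stood at 23.1, 24.4, 20.3 and 91.3 FPKM in initial pools 1 to 4 and at 80.8, 50.6, 33.6 and 110.4 FPKM in steatosis. In each pool number the steatosis value was higher, by ratios of 3.50, 2.07, 1.65 and 1.21, but initial pool 4 exceeded 3 of the steatosis pools. Its log2 fold change of 0.96 (SE 0.50) did not pass (limma, adjusted p = 0.172). With pool number as a block its SE was 0.22 and it passed (adjusted p = 0.0174), and without initial pool 4 it was 1.47 (adjusted p = 0.0180).

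SAA4 stood at 110.4, 81.4, 115 and 42.6 FPKM in initial pools 1 to 4 and at 47.3, 58.1, 68.0 and 21.7 FPKM in steatosis. In each pool number the steatosis value was lower, by ratios of 0.429, 0.714, 0.593 and 0.508, and pool 4 was the lowest in both states. Without regard to pool number, the log2 fold change of -0.86 (SE 0.39) did not pass (limma, adjusted p = 0.125), but it passed with pool number as a block (SE 0.13, adjusted p = 0.00357) and without initial pool 4 (-1.17, adjusted p = 0.0418). Without steatosis pool 4 it was -0.51. Pools of the same number moved together over all genes, which is why the blocked values of SAA3 and SAA4 are given.

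The make-up of the SAA transcripts is given as a description, chosen after the values were seen and with no test. SAA3 held 6.47% to 17.3% of the summed SAA level in the initial pools and 25.9% to 46.4% in the steatosis pools. The ratio of SAA3 to SAA2 within a library, which needs no scaling between libraries, was 0.103, 0.447, 0.521 and 0.233 in initial pools 1 to 4 and 1.25, 0.768, 1.19 and 1.04 in steatosis pools 1 to 4. Every steatosis pool was above every initial pool, and the difference of the mean log2 ratios was 1.93, or 1.46 without initial pool 1 and 2.24 without initial pool 3. The ratio of SAA3 to SAA4 overlapped between groups (0.177 to 2.14 and 0.494 to 5.09), and so did that of SAA2 to SAA4 (0.339 to 9.20 and 0.414 to 4.89). The summed SAA level was 160.3 to 526 FPKM in the initial state and 129.7 to 238 in steatosis, with overlap. The adipocyte marker ADIPOQ was high in initial pool 1 only, where SAA3 was at 23.1 FPKM. The part of other tissues or cell types in the SAA values was not tested.

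**Figure D3:**
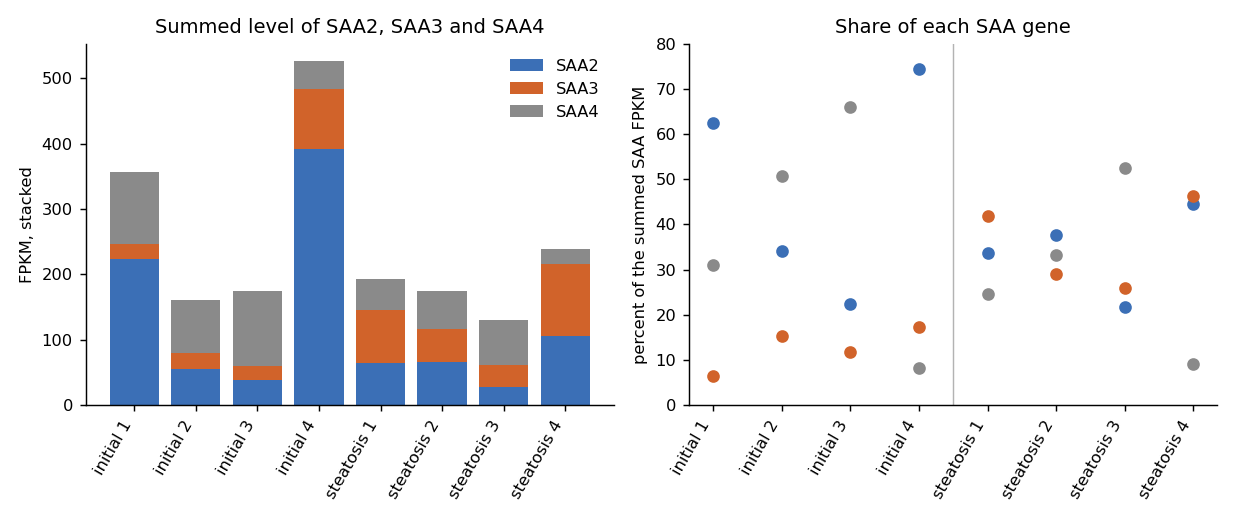
Left, FPKM of SAA2, SAA3 and SAA4 stacked for each library. Right, the percent of their sum held by each gene. SAA3 (orange) makes up at most 17.3% in the 4 initial pools and at least 25.9% in the 4 steatosis pools, and SAA4 (grey) is smallest in pool 4 of both states.

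CRP is a pentraxin that binds phosphocholine on microbes and damaged cells and engages Fc receptors and complement. The table holds 2 genes under this symbol, on chromosome 4, gene 100620468 at 90782741 to 90785051 and gene 396842 at 90793361 to 90801020, separated by 8309 bases. Gene 396842 stood at 54.7, 97.2, 53.2 and 92.0 FPKM in initial pools 1 to 4 and at 57.3, 166, 86.0 and 73.4 FPKM in steatosis. Pool 2 was the highest in both states. Between states it differed by 0.30 on the log2 scale (SE 0.32, limma, adjusted p = 0.506), and without steatosis pool 2 it was -0.0035.

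CRP gene 100620468 stood at 35.5, 23.2, 27.1 and 31.0 FPKM in initial pools 1 to 4 and at 41.9, 34.5, 52.4 and 31.5 FPKM in steatosis. Each steatosis pool was above the initial pool of its number, by ratios of 1.02 to 1.94, and the groups overlapped. The log2 fold change was 0.45 (SE 0.18) with a 95% interval of 0.05 to 0.84. It did not pass after adjustment (limma, adjusted p = 0.0850), and it was 0.17 after median ratio scaling (adjusted p = 0.591). Against ALB, again as a description, the groups separated, at 0.000437 to 0.000775 in the initial state and 0.000898 to 0.00126 in steatosis. Here too the share of all genes that separate against ALB was not counted. The genes under this symbol did not follow the same pools, and reads shared between them could not be separated here.

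LBP (chromosome 17, 41398935 to 41429467) hands lipopolysaccharide to CD14 and the TLR4 receptor. It stood at 94.5, 144, 173 and 124 FPKM in initial pools 1 to 4 and at 112, 139, 154 and 183 FPKM in steatosis, with overlap and with 2 pool numbers higher and 2 lower. The log2 fold change was 0.15 (SE 0.20, 95% interval -0.29 to 0.59, limma, adjusted p = 0.595) and turned to -0.12 after median ratio scaling (adjusted p = 0.685) and -0.0062 without initial pool 1.

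The members differed among pools in a way that repeated between states. Of the 11 genes, 8 had their highest value in the same pool number in both states, and 8 had their lowest value in the same pool number. The share of all genes tested that did so was not counted. Pools of the same number also moved together over all genes, so this repeat cannot be read as particular to the members. Steatosis pool 4 was the highest steatosis pool for 6 genes, namely HP, ITIH4, ORM1, SAA2, SAA3 and LBP. Within steatosis HPX (SD 0.09 on the log2 scale) and ORM1 (0.14) were below the median gene's spread of 0.16, and SAA2 (0.79), SAA3 (0.75) and SAA4 (0.73) were each above at least 97.1% of genes.

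By likeness of profile over the 8 libraries, measured as the root mean square difference of centred log2 values, the closest named genes were GPAT4 (0.0960) and UROS (0.113) for HP, and APOH (0.0795) and AGPAT3 (0.0846) for HPX. ITIH4 was closest to KDM8 and DNAJC17 (both 0.113) and LBP to TMEM160 (0.0821) and ZNF446 (0.116). ORM1 was closest to HAPLN3 (0.138) and C8B (0.152), and CP to IMPAD1 (0.104) and SEL1L (0.108). SAA3 was closest to IFITM3 (0.138) and USP18 (0.187), SAA4 to ERRFI1 (0.305) and MATN2 (0.317), CRP gene 396842 to SOCS5 (0.195) and PID1 (0.263), and CRP gene 100620468 to ST3GAL6 (0.147) and PRR5L (0.164). For SAA2 the smallest differences were larger, at 0.652 (ASPG) and 0.691 (HGD).

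Other positive acute phase proteins were read from a list of 22 symbols, of which 17 were found as 18 genes and 17 genes were tested. Other here means beside the members, which were not sorted into positive and negative proteins. Of these 1 rose (5.88%), 5 fell (29.4%) and 11 did not pass, against 26.7% higher and 2.28% lower of all genes tested. The list's median log2 fold change was -0.25. APCS, which encodes serum amyloid P, the other short pentraxin beside CRP, had the largest difference. It stood at 664, 671, 352 and 611 FPKM in initial pools 1 to 4 and at 74.3, 81.6, 167 and 85.4 FPKM in steatosis. The groups were far apart, and APCS fell by 2.53 on the log2 scale (SE 0.28, limma, adjusted p = 0.000268). Pool 3 was the lowest initial pool and the highest steatosis pool.

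The 3 fibrinogen chains, which form the clot and rise in the classical acute phase, all fell. FGG went from 4209 ± 78.7 to 2963 ± 68.8 FPKM (log2 fold change -0.51, limma, adjusted p = 0.00355), FGA from 3159 ± 143 to 2231 ± 108 (-0.50, adjusted p = 0.00434) and FGB, named outside the rule after its value was seen, showed -0.44 (adjusted p = 0.0127, and 0.0893 without the filter on low genes). The differences of FGG and FGA were close in size to those of HP and HPX. APCS, FGG and FGA were called lower under all 15 alternatives. The other genes called were less firm. SERPING1, the C1 inhibitor, also named outside the rule, fell by 0.38 on the log2 scale (limma, adjusted p = 0.0485), and C4BPA gene 396982, a chain of the complement regulator C4b-binding protein, rose by 0.48 (adjusted p = 0.0320). SERPING1 was lost without any of initial pools 1 to 3 or steatosis pools 1 to 3 (adjusted p = 0.0536 to 0.129) with pool number as a block (0.0688), without the filter on low genes (0.106) and with common sum scaling (0.0558). C4BPA gene 396982 was lost without any library but initial pool 4 (adjusted p = 0.0537 to 0.0848). The other gene under this symbol, C4BPA gene 100520761, went the other way (-0.30, limma, adjusted p = 0.102) and did not pass. It was called lower with pool number as a block (adjusted p = 0.0453) and after median ratio scaling (0.0139). After median ratio scaling 0 genes of this list were higher and 11 lower, and with the block 1 was higher and 5 lower.

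Of the negative acute phase proteins, 11 symbols gave 12 genes, of which 3 rose (25.0%, against 26.7% of all genes tested), 0 fell (also 0 at an unadjusted p under 0.05) and 9 did not pass, with a median log2 fold change of 0.01. TF gene 396996, transferrin, the iron carrier of plasma, rose from 2856 ± 409 to 4356 ± 569 FPKM (log2 fold change 0.61, limma, adjusted p = 0.0118). TF gene 396845, whose description in the table also names the porcine inhibitor of carbonic anhydrase, rose by 0.29 (adjusted p = 0.0324), and F12, coagulation factor XII, by 0.29 (adjusted p = 0.0386). These calls rested on the scaling. After median ratio scaling the 3 genes had log2 fold changes of 0.34, 0.02 and 0.01, none passed, and PON1 and SERPINA7 were called lower instead. Without initial pool 1 only TF gene 396996 remained higher of the 3. TF gene 396845 was also lost without initial pool 4 or any steatosis pool (adjusted p = 0.0521 to 0.0863), and F12 without any library but initial pool 3 (0.0573 to 0.101) and with pool number as a block (0.0611). ALB (-0.40, adjusted p = 0.168) and TTR (-0.03, adjusted p = 0.872) did not pass.

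**Figure D4:**
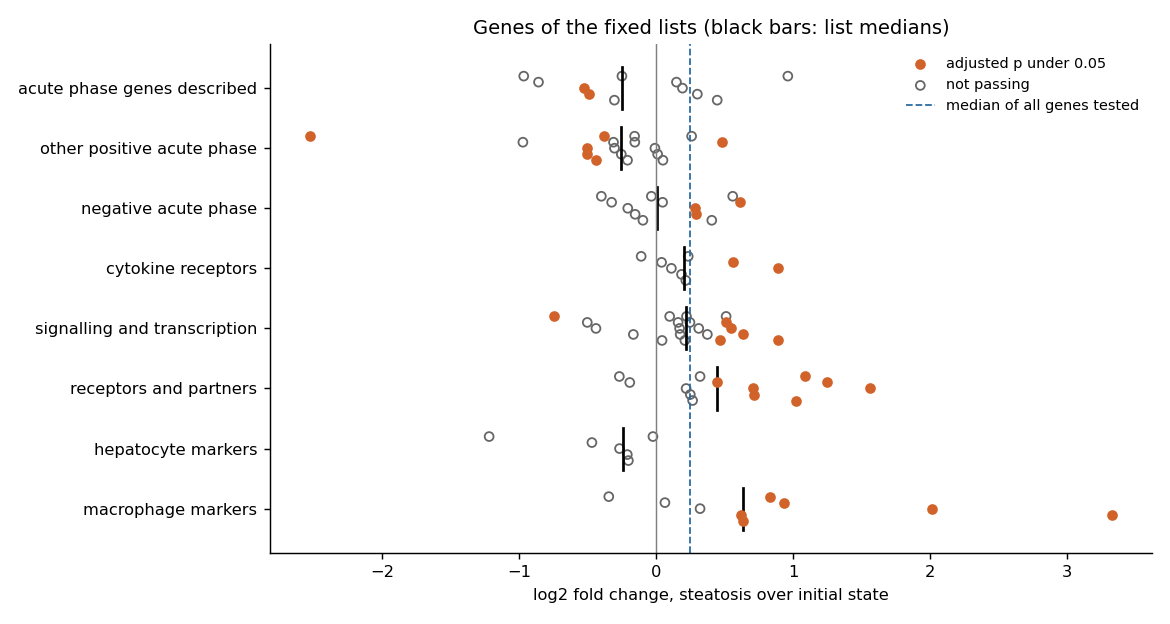
Log2 fold changes of the genes tested in 8 fixed lists (filled, adjusted p under 0.05), with list medians as black bars and the median of all genes tested, 0.25, as a dashed line. The acute phase genes described and the other positive acute phase proteins both have a median of -0.25, the hepatocyte markers one of -0.24 and the negative acute phase proteins one of 0.01. The receptors and partners and the macrophage markers have medians of 0.45 and 0.64.

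The cytokines that start the acute phase were scarcely seen in liver RNA. Of 9 symbols 7 were found, and only TNF was high enough to test, at 0.768 ± 0.363 FPKM in the initial state and 1.25 ± 0.210 in steatosis (log2 fold change 0.73, limma, adjusted p = 0.0955). IL1B stood at 0.13, 0.12, 0.09 and 0.06 FPKM in initial pools 1 to 4 and at 0.22, 0.12, 0.27 and 0.42 FPKM in steatosis, and IL1A at 0.0925 ± 0.0776 and 0.203 ± 0.0544 FPKM, both with overlapping groups and below the filter. IL6 was between 0.05 and 0.46 FPKM in the initial pools and between 0 and 0.35 in the steatosis pools. Such values cannot show a difference at this depth, and cytokines made in other organs are outside these data.

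Of the cytokine receptors 8 genes were tested, 2 rose, a share of 25.0% beside 26.7% of all genes, and 0 fell (also 0 at an unadjusted p under 0.05), with a median log2 fold change of 0.20. Both that rose were receptors of tumour necrosis factor. TNFRSF1B went from 16.2 ± 1.78 to 30.0 ± 1.79 FPKM (0.89, limma, adjusted p = 0.000322) and was called under all 15 alternatives. TNFRSF1A went from 23.3 ± 2.49 to 34.4 ± 3.04 (0.56, adjusted p = 0.00398) and was not called after median ratio scaling (0.29, adjusted p = 0.0524). The receptors of interleukin 6, IL6R (0.04, adjusted p = 0.821) and IL6ST (0.24, adjusted p = 0.140), did not pass.

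Of the 20 signalling and transcription factors, 5 rose (25.0%, against 26.7% of all genes tested), 1 fell and 14 did not pass, with a median of 0.22. MYD88, the adaptor of toll-like and interleukin 1 receptors, rose from 5.13 ± 0.812 to 9.54 ± 0.957 FPKM (0.89, limma, adjusted p = 0.00134). SOCS1, an inhibitor of JAK kinases, fell from 12.9 ± 3.54 to 7.51 ± 0.811 FPKM (-0.74, adjusted p = 0.0143). Both calls were kept under all 15 alternatives. TYK2 (0.64, adjusted p = 0.0214) and NFKBIA (0.55, adjusted p = 0.0214) rose but were not called after median ratio scaling (adjusted p = 0.0747 and 0.167). NFKB1 (0.51, limma, adjusted p = 0.00489) and IKBKB (0.47, adjusted p = 0.0188) also rose and were not called after that scaling (0.112 and 0.226). STAT3 (-0.17, adjusted p = 0.469) and CEBPB (-0.44, adjusted p = 0.175), transcription factors through which interleukin 6 acts on acute phase genes, did not pass, and neither did SOCS3 (-0.50, adjusted p = 0.386), the feedback inhibitor of that pathway. After median ratio scaling 1 gene of the list was higher, MYD88, and 2 were lower, SOCS1 and STAT3. TYK2 was also not called without steatosis pools 2, 3 or 4 (adjusted p = 0.0600, 0.0524 and 0.0562), and NFKBIA without initial pool 4 or steatosis pools 1 or 3 (0.0503, 0.0579 and 0.0515).

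The receptors and partners of the acute phase proteins include the uptake receptors of the scavengers and the lipopolysaccharide receptors that LBP serves. Of 13 genes tested 7 rose (53.8%, against 26.7% of all genes tested), 0 fell (also 0 at an unadjusted p under 0.05) and 6 did not pass. The median log2 fold change was 0.45. LY96, which holds lipopolysaccharide on TLR4, went from 7.61 ± 0.817 to 18.3 ± 2.47 FPKM (1.25, limma, adjusted p = 0.00016), TLR2 from 3.45 ± 0.513 to 7.40 ± 0.541 (1.09, adjusted p = 0.000422) and TLR4 from 2.76 ± 0.428 to 5.66 ± 0.265 (1.02, adjusted p = 0.000553). These 3 were called under all 15 alternatives, while LBP and CD14 (-0.19, adjusted p = 0.186), which act before them, did not pass. CD163, the haptoglobin-haemoglobin receptor, was at 23.1 and 28.7 FPKM (0.32, adjusted p = 0.0889) and did not pass, whereas LRP1, the receptor of the haem-hemopexin complex, rose by 0.72 (adjusted p = 0.00953) and HMOX1, which breaks down haem, by 0.45 (adjusted p = 0.0277). LRP1 was called under all 15 alternatives. HMOX1 was lost without initial pools 1, 3 or 4 or steatosis pools 1, 2 or 4 (adjusted p = 0.0520 to 0.0801). FCGR1A, an Fc receptor, rose by 1.56 (adjusted p = 0.0318) with overlapping groups and was lost without initial pools 1, 2 or 3 or steatosis pools 1, 3 or 4 (adjusted p = 0.0515 to 0.0870). After median ratio scaling 4 genes of the list were higher, LY96, TLR2, TLR4 and LRP1, and 1, CD14, was lower.

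Macrophage markers were read as a list of their own, which shares CD163 with the receptors and partners. Of 9 markers 6 rose (66.7%, against 26.7% of all genes tested) and 0 fell (1, CD5L, at an unadjusted p under 0.05). C1QA (0.07, limma, adjusted p = 0.730), CD163 and CD5L (-0.34, adjusted p = 0.0709) did not pass. The summed level of the 9 markers was 676 to 930 FPKM in the initial state and 982 to 1122 in steatosis, and all were above 0 in every library. After median ratio scaling 4 were higher and 1, CD5L, lower (adjusted p = 0.0348). MARCO went from 5.87 ± 1.25 to 63.3 ± 30.3 FPKM (3.33, limma, adjusted p = 6.19e-05) and CD68 (gene 103158530) from 11.3 ± 2.88 to 47.0 ± 16.5 (2.01, adjusted p = 0.00076). The CD68 that the study lists among its selected transcripts has another gene ID. The part of macrophages in the receptor values was not tested. Of the other cell types, CSF3R was the marker of neutrophils that rose (1 of 5 tested, 1.49, limma, adjusted p = 0.00228). S100A9 (-0.66), S100A8 (-0.17), S100A12 (0.06) and CXCR2 (0.18) did not pass. NKG7 was the marker of T and NK cells that rose (1 of 5, 1.36, adjusted p = 6.15e-05). Of 3 B cell markers CD79A and MS4A1 fell. CD79A was lost without initial pools 2 or 3 or steatosis pools 2 or 3 (adjusted p = 0.0767 to 0.0811) and with the block (0.0598). Of 8 immediate early genes tested 0 passed in limma (also 0 at an unadjusted p under 0.05), but without initial pool 1 JUN was called higher. JUN stood at 111, 38.4, 27.1 and 19.5 FPKM in initial pools 1 to 4 and at 105.0, 53.1, 78.9 and 40.7 FPKM in steatosis (0.75, adjusted p = 0.274, and 1.25, adjusted p = 0.0214, without initial pool 1). DUSP1 (83.7 ± 89.2 and 46.0 ± 16.3 FPKM) varied widely among initial pools.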

How the data were processed

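Hepatic RNA from 8 pools of 2 pigs was poly-A selected and sequenced in paired reads of 100 bp. The authors filtered the reads, mapped them with HISAT2 2.0.4 to Sus scrofa 11.1, merged new coding transcripts with the reference, aligned with Bowtie2 2.2.5 and estimated expression with RSEM 1.2.12, and they deposited FPKM values without a stated scaling between libraries. The 4 tables deposited by the authors for pool-by-pool comparisons, which hold log2 fold changes, p-values and FDR, were used for gene length only. Read counts were not used here, so no counting interval is given, and each value rests on pools, which hide the spread between pigs.

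The test covered genes reaching 0.3 FPKM in 4 or more of the libraries. FPKM values were raised by 0.1, taken to log2 and fitted in R 4.3.3 by limma 3.58.1, using a trend of variance on level and no term beside the state, and p values were adjusted by Benjamini-Hochberg across all tested genes. A fold change on this scale understates that of low genes. For each member an exact permutation test, two-sided on mean FPKM, was added. Groups came from the labels. Deviations from the group means of pools with the same number correlated at 0.163 to 0.350, and each pool matched its own number best, so pool number was used as a block in an alternative fit. The sources do not say that pools of a number hold the same pigs. Other alternatives were a pseudocount of 1, no filter, a filter of 7 libraries, common sum, upper quartile and median ratio scaling, and leaving out each library. In simulated data for this comparison (12733 genes tested), limma found 80.2% of the changes of 1 and 92.6% of those of 2 on the log2 scale, with 11 unchanged genes called. The simulated noise was independent between pools and held no shift of the median gene, unlike the data. Changes smaller than 1, such as those of HP and HPX, were not simulated, so the share of these that would be found is not known. Python 3.11.15 with pandas 2.3.3 and numpy 2.4.6 gave the tables, and matplotlib 3.10.9 the plots. Coordinates are those of RefSeq for Sscrofa11.1, in which all 11 genes were found by ID.

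The members and the lists were chosen with earlier results of these data known, and 1 gene of a list is not reported here. Of each list the text names up to 4 genes with the largest change among those at an adjusted p under 0.05, or, with none, up to 2 with the highest mean, and for each member the 2 genes of at least 1 FPKM with the closest profile. Other list genes were named after their values were seen.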

Additional observations from a re-analysis of the deposited data

Results flagged for a closer look

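Among the 22 sets of 4 pools, 11 genes in each state, 1 had a pool far from the rest by Dixon's test. SAA3 in the initial state was at 91.3 FPKM in pool 4 and between 20.3 and 24.4 FPKM in the other 3 pools, and the gap made up 0.942 of the range. Chance flags about 1 in 20 such sets. Pool 4 was also the highest for SAA3 in steatosis (110.4 FPKM).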

How the results depend on the processing

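The count of acute phase genes higher in steatosis, 0, became 1 (SAA3) with pool number as a replicate block and was 0 to 1 when each library was left out. The count of genes lower, 2, was 1 without the filter on low genes, 0 at the study's limits and 1 to 2 when a library was left out (1 without initial pool 1, steatosis pool 1 or steatosis pool 3). It was 3 after median ratio scaling (CP in addition) and 3 with the block (SAA4 in addition). The block changed no call of a member other than SAA3 and SAA4. Elsewhere among the genes named with a fold change it changed only those of SERPING1, F12, CD79A, HBB and C4BPA gene 100520761. The ratio of the members' share of all FPKM, 0.767, was 0.991 relative to ALB and 0.733 to 0.812 when a library was left out. ITIH4 changed sign under upper quartile (-0.028) and median ratio scaling (-0.081), and LBP under both (-0.072 and -0.124) and without initial pool 1. When each library was left out, LBP ranged from -0.0062 to 0.285, CRP gene 396842 from -0.0035 (without steatosis pool 2) to 0.508, and DUSP1 from -0.781 to 0.176 (without initial pool 1). None of these passed the test in any of the settings. The log2 ratio of SAA2 to SAA4, -0.107, ranged from -0.80 to 0.787 and turned positive without initial pools 1 or 4 or steatosis pool 3. Scaling moved the lists most. Over all alternatives the other positive acute phase proteins had 0 to 1 higher and 3 to 11 lower, the negative ones 0 to 4 and 0 to 2, the signalling genes 1 to 6 and 1 to 2, and the receptors and partners 4 to 7 and 0 to 1. Why the median of all genes differs between states was not tested. With 4 pools a group the intervals of SAA2 and SAA3 span several-fold changes.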
